A study of Saccharomyces cerevisiae with 30 samples.

Results

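Positions 621 to 860 of the 1800-nucleotide 18S rRNA of budding yeast (Saccharomyces cerevisiae) are the stretch of the central domain that holds expansion segment 6. The stretch was taken by position alone, as 240 consecutive nucleotides with 98 A and C. Of these, 94 (50 A and 44 C) had an effective depth of at least 1000 reads in all 30 libraries and are the nucleotides described here, out of 776 A and C of 18S that met the same depth, which left 682 in the rest of 18S. The other 4 (A791, A793, A856 and A859) fell below that depth in 1 library each, with lowest depths of 965, 653, 982 and 783 reads.

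Expansion segments are stretches that eukaryotic rRNAs carry beyond the core shared with bacteria, and expansion segment 6 is the largest of them in the small subunit, on the solvent side of its body. Pre-40S particles are the late precursors of the small subunit: they carry assembly factors, Rio2 among them, which leave before the subunit can translate. Rio2, a kinase-like ATPase, and the ribosomal protein S15 both bind at the head of the subunit, away from this segment. Dimethyl sulfate (DMS) methylates the pairing face of unpaired, exposed A and C, and in DMS-MaPseq reverse transcriptase reads such a base as a mutation.

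The particles were mature 40S (3 replicates), S15_YRR pre-40S (3), Rio2_Δloop pre-40S (4) and WT pre-40S (5), and the replicates are labelled as biological. S15_YRR and Rio2_Δloop are named after the changed S15 and the changed Rio2, and the labels give no further detail of either change. The pre-40S were pulled out by TAP-tagged Rio2, so the bait was also the changed protein in Rio2_Δloop cells, while the labels do not say how mature 40S was obtained. Cells grew in YPD to mid-log phase, the treatment was 1% DMS at 30 °C for 5 min, and each replicate had a DMS library and an untreated library (NC).

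The letters of the stretch are shown because the signal sat on few of them, and the values below refer back to these sites. They are those of the deposited profiles, written 5′ to 3′; RefSeq lists 18S as RDN18-1 and RDN18-2, both of length 1800. In the whole stretch the capitals mark the 15 nucleotides whose DMS mutation rate was at least 2 times the NC rate, and in the shorter runs they mark the nucleotides described by name.
positions 621 to 860: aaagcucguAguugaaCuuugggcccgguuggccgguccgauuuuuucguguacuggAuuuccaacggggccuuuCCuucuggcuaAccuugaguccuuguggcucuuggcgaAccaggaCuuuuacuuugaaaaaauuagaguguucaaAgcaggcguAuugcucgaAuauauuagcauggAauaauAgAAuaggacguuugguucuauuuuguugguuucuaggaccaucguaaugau
A678, positions 670 to 686: uguacuggAuuuccaac
C696, C697, A706 and A707, positions 688 to 715: gggccuuuCCuucuggcuAAccuugagu
A734 and C741, positions 726 to 749: cuuggcgaAccaggaCuuuuacuu
A771, A780 and A789, positions 763 to 797: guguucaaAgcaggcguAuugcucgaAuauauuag
A803, A809, A811 and A812, positions 795 to 820: uagcauggAauaauAgAAuaggacgu

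The median effective depth over the 94 nucleotides was between 3311 and 14163 reads per library, with single positions from 1122 to 30158, and each library held between 2151 and 8815 mutations there. By their untreated profiles over 18S the replicates formed 4 library sets, which cut across the particles, with Pearson's r of 0.845 to 0.947 across positions within sets and 0.286 to 0.634 between them. Set 1 held mature 40S replicates 2 and 3, S15_YRR replicates 1 to 3, Rio2_Δloop replicates 3 and 4 and WT replicates 4 and 5. Set 2 held Rio2_Δloop replicates 1 and 2 and WT replicates 2 and 3, while WT replicate 1 and mature 40S replicate 1 each stood alone. WT replicate 1 went against its label in this stretch: its DMS library had a lower mutation rate than its NC library at all 4 bases, by -0.405 percentage points at A, -0.456 at C, -0.669 at G and -0.548 at U. Values are therefore given with and without that replicate where it weighs on them.

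DMS raised the mutation rate at the adenines of the stretch. Over the 50 A the mean rate was 0.798% ± 0.116 in DMS libraries and 0.608% ± 0.145 in NC libraries (SD, n = 15 pairs), a difference of 0.191 percentage points (SD 0.187) that was positive in 14 of 15 pairs (two-sided exact sign-flip p = 0.00323; p = 0.0129 after adjustment over the 4 bases). Over the 44 C the rates were 0.718% ± 0.144 in DMS libraries and 0.666% ± 0.133 in NC libraries. That difference of 0.0515 percentage points was positive in 13 of 15 pairs and did not pass the test (exact p = 0.227; adjusted p = 0.455). Without WT replicate 1 it was 0.0878 percentage points and passed (exact p = 0.000732).

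Guanine and uracil gave the background measured the same way, since DMS does not mark their pairing face in this readout. At the 59 G, DMS and NC rates differed by 0.00468 percentage points (SD 0.190; exact p = 0.995), and at the 77 U by -0.0170 (SD 0.151; exact p = 0.976; adjusted p = 0.995). Without WT replicate 1 both were above 0, with 0.0528 at G (exact p = 0.000488) and 0.0209 at U (exact p = 0.0482), against 0.233 at A. In those 14 pairs A thus had the highest difference of the 4 bases, followed by C.

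**Figure D1:**
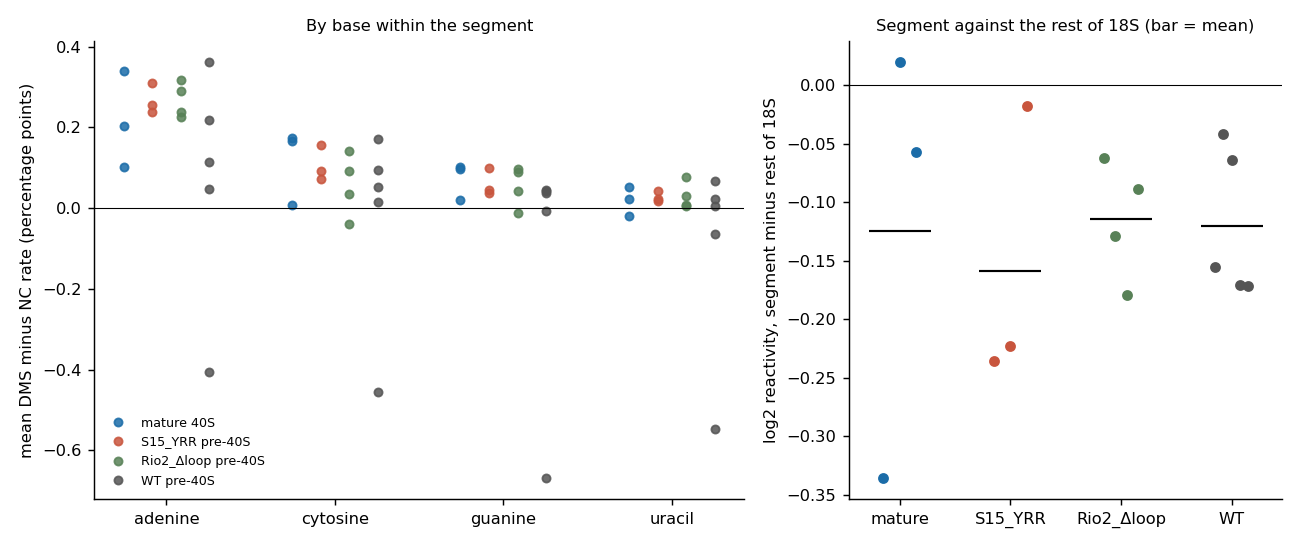
Left, the mean DMS minus NC mutation rate in percentage points at the adenines, cytosines, guanines and uracils of the stretch, 1 point per replicate and particle; the lowest WT pre-40S point at each base is WT replicate 1, at -0.405 for adenine. Right, the mean log2 reactivity of the 94 nucleotides minus that of the 682 others in 18S, 1 point per replicate with bars at the group means, of which 14 of 15 points lie below 0.

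To compare replicates, the NC rate of a nucleotide was subtracted from its DMS rate, and the reactivity is this difference divided by the mean difference between the 90th and 98th percentile over the A and C of 18S in the same replicate, so that 1 stands for a strongly reactive nucleotide. On this scale the stretch was on average less reactive than the rest of 18S. The mean log2 of reactivity plus 0.1 over the 94 nucleotides, minus that over the other 682, was -0.127 (SD 0.0954, n = 15) and lay below 0 in 14 of 15 replicates (exact two-sided sign-flip test, p = 0.000183). With the median over nucleotides in place of the mean it was -0.0837 and did not pass (exact p = 0.0851). Within set 1 it was -0.125 (exact p = 0.0117), and with adenines or cytosines alone, alternatives chosen after seeing the data, it was -0.107 (exact p = 0.000916) and -0.109 (exact p = 0.00519). All replicates measure the same nucleotides. These p-values thus show how the difference repeated between replicates, not how it stands to the spread between nucleotides.

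No difference between particles in this value was resolved. Mature 40S had -0.124 ± 0.187 (n = 3) and S15_YRR had -0.159 ± 0.122 (n = 3). Rio2_Δloop had -0.114 ± 0.0511 (n = 4), and WT pre-40S had -0.120 ± 0.0628 (SD, n = 5). The 6 differences between particles were between -0.0442 and 0.0343, all smaller than the spread between replicates, with exact two-sided permutation p-values from 0.5 to 0.964 and an adjusted p of 0.964 for each. With these group sizes no p can be smaller than a bound that was between 0.00794 and 0.1. For mature 40S minus S15_YRR the bound was 0.1, so that comparison could not pass 0.05 and its p decides nothing. The single replicate above 0 was mature 40S replicate 2, at 0.0198, and the lowest was mature 40S replicate 1, at -0.336.

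Most of the 94 nucleotides carried little signal. Averaged over the 4 particles, 7 (7.45%) had a reactivity over 0.5, against 77 of the 682 (11.3%) in the rest of 18S, and 69 (73.4%) were under 0.1, against 67.7% in the rest. The median was 0.0754 over the A and -0.0242 over the C. Of the 7 over 0.5, 5 were A and 2 were C. Without WT replicate 1, 8 nucleotides (6 A and 2 C) were over 0.5, 8.51% against 11.9% in the rest, and 63 (67.0%) were under 0.1, against 59.4% in the rest.

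Along the stretch, mean reactivity was low at both ends. It was 0.0134 over the 16 nucleotides from 621 to 660, 0.127 over 15 from 661 to 700 and 0.131 over 17 from 701 to 740. The next windows were higher, with 0.172 over 19 nucleotides from 741 to 780 and 0.199 over 17 from 781 to 820. In the last window, from 821 to 860, the mean over 10 nucleotides was -0.190. Without WT replicate 1 the means of the 6 windows were 0.0448, 0.165, 0.181, 0.201, 0.219 and -0.0154 in the same order, so both ends stayed lowest. In the first window the WT mean of -0.0727 became 0.0530. In the last window WT replicate 1 stood at -3.53, and the WT mean of -0.733 became -0.0330 without it. The means there were -0.0386 in mature 40S, 0.0770 in S15_YRR and -0.0671 in Rio2_Δloop.

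**Figure D2:**
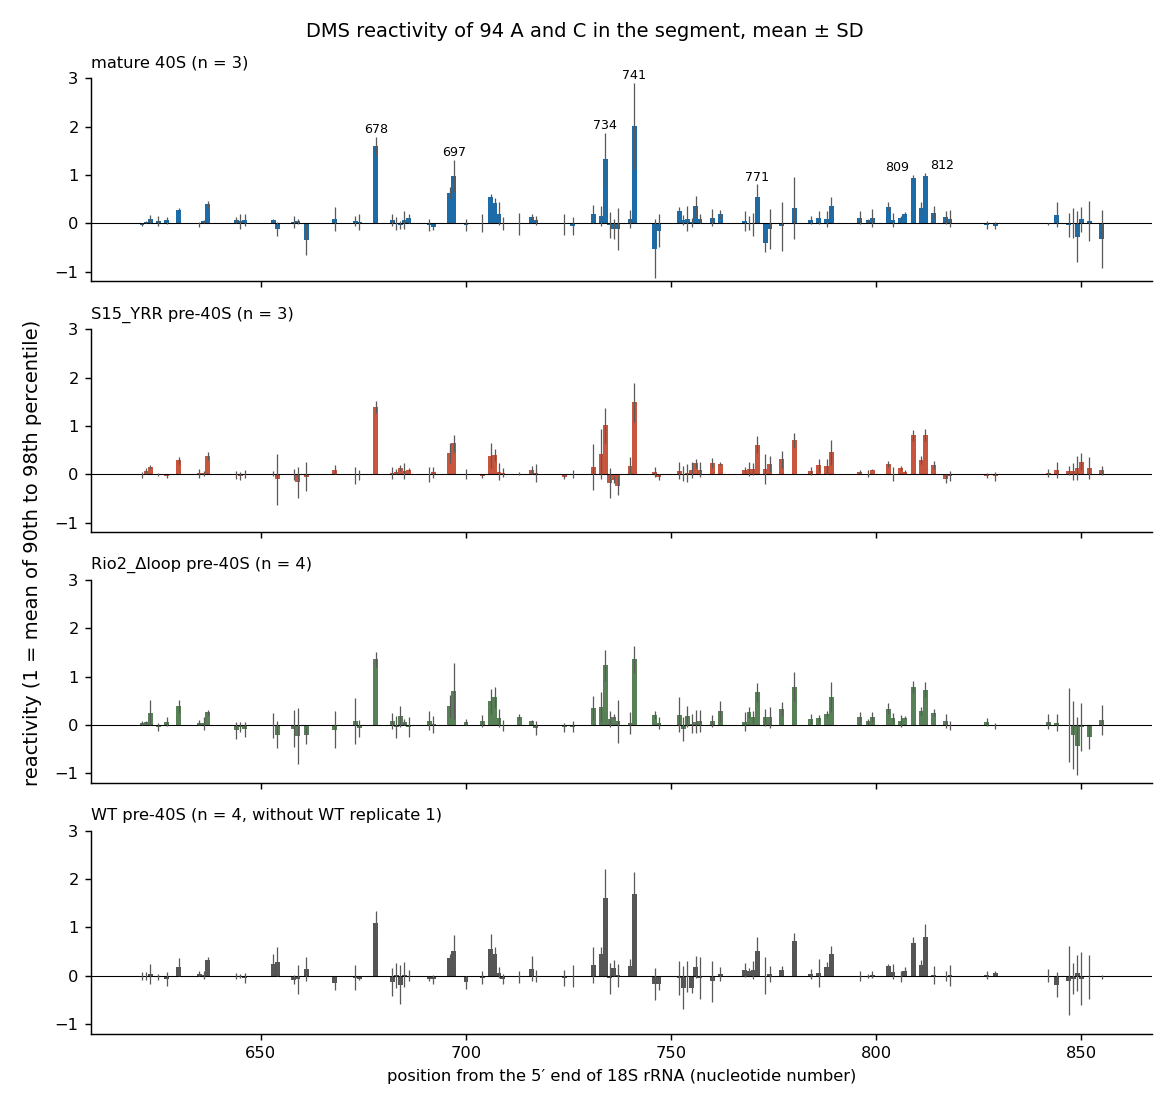
Reactivity of each of the 94 A and C against its position in 18S, as bars of the group mean with lines of 1 SD, for mature 40S, S15_YRR, Rio2_Δloop and WT pre-40S, the last without WT replicate 1. The tall bars stand at the same sites in all 4 panels, with means over the particles, WT replicate 1 included, of 1.53 at position 741, 1.38 at 678 and 1.26 at 734.

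C741, A678 and A734 were the most reactive nucleotides of the stretch, with mean reactivities of 1.53, 1.38 and 1.26. Over the 776 A and C of 18S they ranked 19th, 22nd and 26th. C741 was among the 3 highest of the stretch in 13 of 15 replicates, A678 in 14 and A734 in 10. These nucleotides were named for their level, so the values are a description.

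At C741 the DMS minus NC rate was 1.04, 2.45 and 3.08 percentage points in mature 40S and 1.64, 1.62 and 2.29 in S15_YRR, with 1.38, 1.38, 1.32 and 1.67 in Rio2_Δloop and -0.239, 1.52, 1.38, 1.76 and 2.42 in WT pre-40S. Apart from WT replicate 1, the only negative value, the lowest was that of mature 40S replicate 1, and the ranges of the 4 particles overlapped. The means were 2.19 ± 1.05 in mature 40S, 1.85 ± 0.384 in S15_YRR, 1.44 ± 0.156 in Rio2_Δloop and 1.37 ± 0.982 in WT (SD), or 1.77 ± 0.458 in WT without replicate 1.

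A678, in the run shown above, was positive in every replicate. It had 1.22, 2.11 and 1.86 percentage points in mature 40S, 2.09, 1.70 and 1.52 in S15_YRR, 1.34, 1.11, 1.71 and 1.73 in Rio2_Δloop and 0.712, 0.572, 0.950, 1.93 and 1.55 in WT. The 3 lowest values were WT replicates 1 to 3, while WT replicates 4 and 5, of the same library set as S15_YRR, lay within the range of the other particles. Within set 2, WT replicates 2 and 3 had 0.572 and 0.950, below the 1.34 and 1.11 of Rio2_Δloop replicates 1 and 2. On the reactivity scale the WT replicates all lay below the mature 40S replicates, with 1.61 ± 0.190 in mature 40S and 1.16 ± 0.248 in WT (SD).

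A734 lies upstream of C741 in the same run. It had 0.594, 2.09 and 1.76 percentage points in mature 40S, 1.40, 1.70 and 0.762 in S15_YRR, 1.29, 0.818, 1.16 and 2.28 in Rio2_Δloop and 0.494, 1.64, 1.34, 1.28 and 2.18 in WT. The group means were 1.48 in mature 40S, 1.29 in S15_YRR, 1.39 in Rio2_Δloop and 1.39 in WT. Without replicate 1 the WT mean was 1.61 ± 0.411 (SD), which made it the highest, and the ranges of the 4 particles overlapped either way. Its NC rate was 0.645% in mature 40S, 1.04% in S15_YRR, 1.16% in Rio2_Δloop and 1.25% in WT, against a mean of 0.608% over the 50 A. For mature 40S over WT the log2 change of its NC rate was -0.62 (edgeR adjusted p = 0.443).

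A809, A811 and A812, in the run that starts at position 795, stood out by the ratio of the DMS rate to the NC rate. The ratio was 6.54 at A812, 6.36 at A809 and 4.16 at A811, against 3.54 at C741 and 3.77 at A678. A809 and A812 were among the 12 most reactive nucleotides in 15 of 15 replicates, and all 3 adenines had a DMS rate above the NC rate in every replicate.

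A812 had 0.901, 1.27 and 0.969 percentage points in mature 40S, 1.03, 0.897 and 1.12 in S15_YRR, 0.824, 0.522, 0.724 and 1.14 in Rio2_Δloop and 0.276, 0.434, 0.611, 1.92 and 0.872 in WT. The WT replicates spanned the values of all other particles, with both the highest and the lowest of the 15. At A809 the values were 0.742, 1.32 and 0.992 in mature 40S, 1.24, 0.845 and 0.969 in S15_YRR, 0.715, 0.691, 0.744 and 1.31 in Rio2_Δloop and 0.206, 0.399, 0.574, 1.35 and 0.756 in WT. WT again held the lowest and the highest value. A811 was lower, with means of 0.336 ± 0.112 in mature 40S, 0.369 ± 0.0847 in S15_YRR, 0.310 ± 0.123 in Rio2_Δloop and 0.221 ± 0.216 percentage points in WT (SD). A803, 6 positions upstream of A809, had means of 0.366 ± 0.0855 in mature 40S, 0.266 ± 0.0742 in S15_YRR, 0.391 ± 0.204 in Rio2_Δloop and 0.185 ± 0.140 percentage points in WT (SD).

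**Figure D3:**
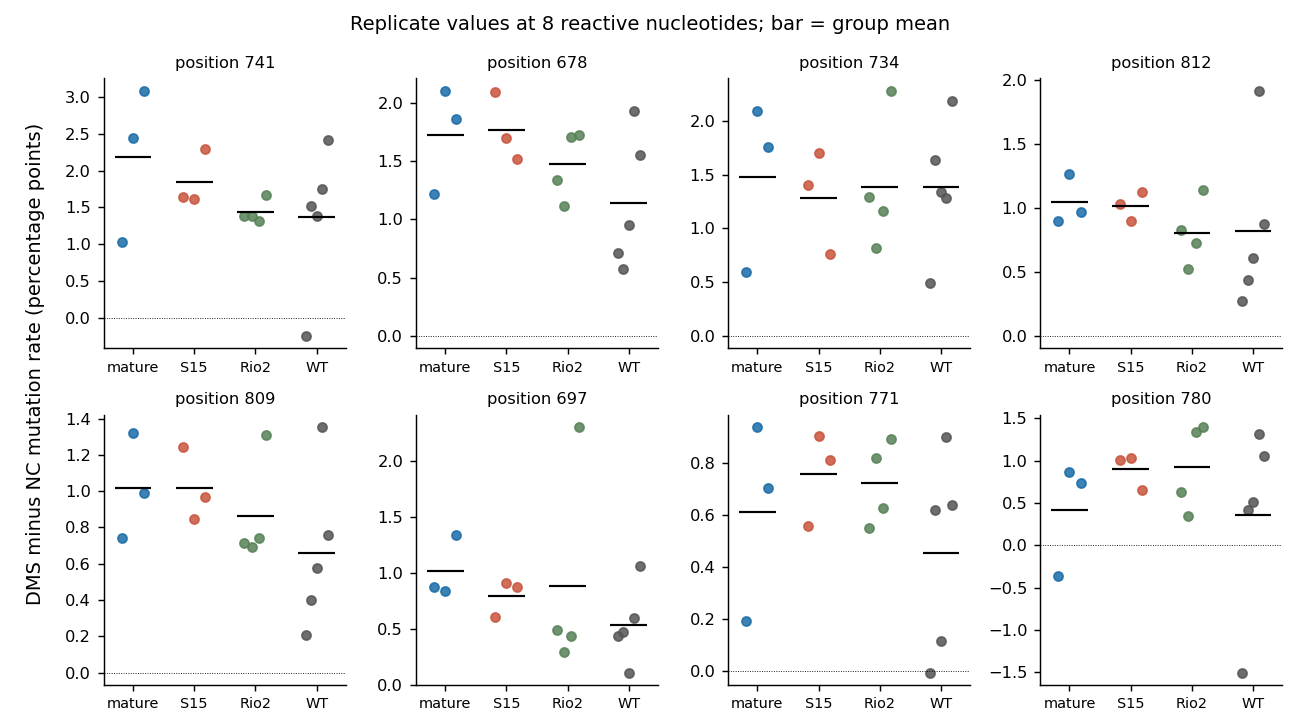
DMS minus NC mutation rate in percentage points of every replicate at 8 of the most reactive nucleotides, with the particles along each horizontal axis and bars at the group means. The particles overlap at each site on this scale. WT replicate 1 is the lowest point at position 741 (-0.239), at position 780 (-1.50) and also at positions 734, 771, 809 and 812.

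The adjacent cytosines C696 and C697 and the adjacent adenines A706 and A707 formed a further pair of reactive sites. C697 had 0.875, 0.837 and 1.34 percentage points in mature 40S, 0.603, 0.904 and 0.868 in S15_YRR, 0.492, 0.289, 0.434 and 2.30 in Rio2_Δloop and 0.432, 0.473, 0.109, 0.592 and 1.06 in WT. The Rio2_Δloop mean of 0.878 ± 0.949 (SD) thus rested on replicate 4, which was above every other replicate of any particle. C696 was lower, with means of 0.683 ± 0.173 in mature 40S, 0.539 ± 0.231 in S15_YRR, 0.474 ± 0.402 in Rio2_Δloop and 0.321 ± 0.301 in WT (SD), and Rio2_Δloop replicate 4 was again its highest replicate, at 1.06. A707 had means of 0.466 in mature 40S, 0.50 in S15_YRR, 0.667 in Rio2_Δloop and 0.384 percentage points in WT. A706 had 0.591 in mature 40S, 0.486 in S15_YRR, 0.521 in Rio2_Δloop and 0.589 in WT, or 0.666 in WT without replicate 1. It was the only one of the 12 most reactive nucleotides whose DMS rate was less than 2 times its NC rate, at 1.77 times, so it was not tested between particles.

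A771, A780 and A789, in the run from position 763, completed the 12. A771 had 0.192, 0.938 and 0.705 percentage points in mature 40S, 0.558, 0.904 and 0.812 in S15_YRR, 0.550, 0.820, 0.627 and 0.895 in Rio2_Δloop and -0.00585, 0.620, 0.114, 0.900 and 0.638 in WT. A780 had -0.356, 0.870 and 0.736 in mature 40S, 1.00, 1.03 and 0.657 in S15_YRR, 0.632, 0.340, 1.34 and 1.39 in Rio2_Δloop and -1.50, 0.412, 0.508, 1.31 and 1.06 in WT. The negative values at A780 were those of the 2 replicates that stood alone by library set: in WT replicate 1 the NC rate was 5.18% and the DMS rate 3.68%. At A789 the DMS minus NC rate was 0.131 to 0.653 percentage points in mature 40S, 0.354 to 1.03 in S15_YRR, 0.181 to 1.11 in Rio2_Δloop and 0.275 to 1.03 in WT replicates 2 to 5, while WT replicate 1 had -0.475. Mature 40S replicate 1 was thus above 0 at A789, though the lowest of the other 14.

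C637 and A630 were the only nucleotides upstream of A678 whose DMS rate was at least 2 times the NC rate. C637 had means of 0.419 ± 0.110 in mature 40S, 0.478 ± 0.0699 in S15_YRR, 0.287 ± 0.110 in Rio2_Δloop and 0.288 ± 0.238 percentage points in WT (SD), or 0.370 in WT without replicate 1. A630 had means of 0.308 ± 0.110 in mature 40S, 0.367 ± 0.0981 in S15_YRR, 0.402 ± 0.120 in Rio2_Δloop and 0.0745 ± 0.497 in WT. Without WT replicate 1, at -0.658, the WT mean at A630 was 0.258 ± 0.324.

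The group mean profiles of the particles correlated along the stretch. Over the 94 nucleotides, Pearson's r between group mean reactivities was 0.895 for mature 40S and S15_YRR, 0.852 for mature 40S and Rio2_Δloop and 0.900 for S15_YRR and Rio2_Δloop. With WT it was 0.698 for mature 40S, 0.610 for S15_YRR and 0.627 for Rio2_Δloop, and without WT replicate 1 these became 0.865, 0.889 and 0.867. These correlations are across nucleotides that share libraries, and the few tall sites weigh on them: without C741, A678 and A734 r was 0.768 for mature 40S and S15_YRR, 0.709 for mature 40S and Rio2_Δloop and 0.808 for S15_YRR and Rio2_Δloop. With WT it was then 0.564 for mature 40S, 0.411 for S15_YRR and 0.436 for Rio2_Δloop, and without WT replicate 1 as well these became 0.710, 0.797 and 0.753.

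Pairing predicted from the letters alone separated reactive from unreactive nucleotides in part. The minimum free energy fold of the 240 nucleotides (-73.4 kcal/mol) left 32 of the 94 unpaired and paired 62. Mean reactivity at predicted unpaired minus predicted paired nucleotides was 0.211 (SD 0.0765) and above 0 in 15 of 15 replicates (exact two-sided sign-flip test, p = 6.1e-05, the smallest that 15 replicates allow). When the whole of 18S was folded instead, the difference was 0.0592 and did not pass (exact p = 0.139). Both tests run over replicates of the same 94 nucleotides with a fixed fold. They show how the difference repeated between replicates and do not measure the spread between nucleotides.

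By particle, mean reactivity at unpaired nucleotides was 0.323 ± 0.0907 in mature 40S, 0.274 ± 0.0101 in S15_YRR, 0.295 ± 0.0383 in Rio2_Δloop and 0.0583 ± 0.380 in WT (SD). WT replicate 1, at -0.612, carried that low mean and spread: the other 4 WT replicates lay between 0.121 and 0.274, with a mean of 0.226 ± 0.0709. Of the 12 most reactive nucleotides, 8 were predicted unpaired: C741, A678, A734, C697, A771, A706, A707 and C696. Among these A771 had a pair probability of 0.756, although the minimum free energy fold left it unpaired. The other 4 were predicted paired, and of these A812 and A809 had pair probabilities of 0.998 and 0.989 while A780 had 0.0917 and A789 0.654. The 7 nucleotides in predicted hairpin loops were not among the 12, and their median reactivity was 0.0610.

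**Figure D4:**
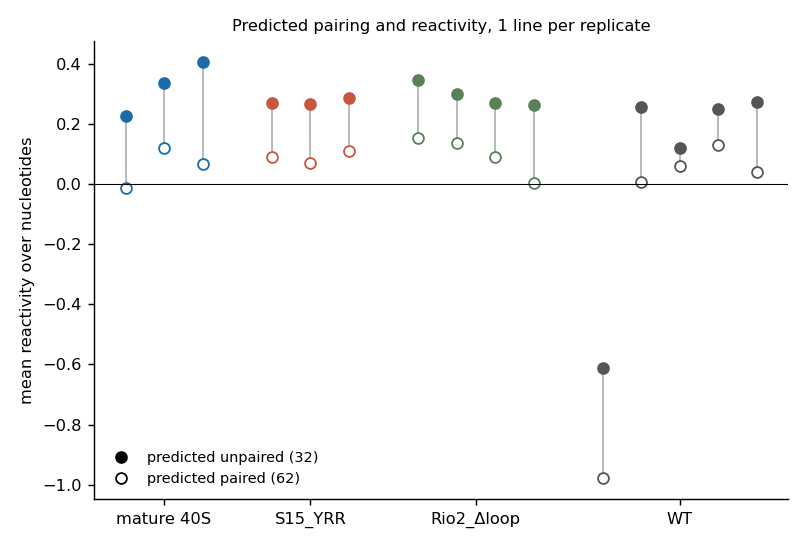
Mean reactivity of the 32 nucleotides predicted unpaired (filled) and the 62 predicted paired (open) in each replicate, joined by a line, grouped by particle. The filled point lies above the open one in 15 of 15 replicates, and WT replicate 1 stands apart with both below 0.

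Between particles, the test used mutation counts of the DMS libraries and was fitted over the 115 nucleotides of 18S whose DMS rate was at least 2 times the NC rate, 15 of them in this stretch (11 A and 4 C). It compares DMS rates after a library scale, with no NC subtraction. Across the 6 comparisons none of the 15 passed the threshold of an adjusted p of 0.05 (edgeR quasi-likelihood test, Benjamini-Hochberg adjustment over the 115), and DESeq2 and limma on log2 reactivity also called 0. Of all tested nucleotides, 22.6% were called for mature 40S over WT, 17.4% for mature 40S over S15_YRR, 17.4% for mature 40S over Rio2_Δloop, 0.87% for S15_YRR over WT, 13.9% for Rio2_Δloop over WT and 6.09% for S15_YRR over Rio2_Δloop. Every one of those calls lay among the 100 nucleotides outside the stretch. Comparisons that share a particle share its libraries and are not independent of each other.

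For mature 40S over WT, which asks what differs between the finished subunit and its precursor, the log2 changes of the 15 were between -0.62 at A780 and 0.49 at C697, with a median of 0.05 against 0.03 over all 115. None had an unadjusted p under 0.05, while 36 of the 115 did. The smallest edgeR adjusted p was 0.192, at A678, with a log2 change of 0.27 (95% interval -0.02 to 0.57). Leaving out mature 40S replicate 1 brought A678 past the threshold, with a log2 change of 0.41 and an adjusted p of 0.0474. Within set 1 the change at A678 was 0.33 (edgeR adjusted p = 0.194), and with the library set as a term 0.40 (adjusted p = 0.0601). At A734 the change was -0.54 (95% interval -1.14 to 0.07; adjusted p = 0.198), but it was 0.05 within set 1 and 0.02 with the library set as a term. At C741 the change was 0.05 (-0.46 to 0.56). At A780 the change of -0.62 became 0.02 without WT replicate 1.

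The reactivities of 4 of the 15 did not overlap between mature 40S and WT, where 23.5% of the 115 did not: A678, C696, A803 and A809, each higher in mature 40S. That is 4 of 15 against about the same share of all tested nucleotides. Reactivity has the NC rate subtracted, unlike the edgeR test of DMS rates. At A803 the log2 change for mature 40S over WT was 0.05 in DMS libraries (edgeR adjusted p = 0.951). In NC libraries it was -0.86 there (edgeR adjusted p = 0.36). At A678, C696 and A809 the change in DMS libraries was 0.27, 0.30 and 0.32, and none of these passed. For mature 40S over Rio2_Δloop 1 of the 15 did not overlap, C637, higher in mature 40S (27.8% of the 115). The other comparisons had none, where the share of the 115 was 32.2% for mature 40S over S15_YRR, 10.4% for S15_YRR over WT, 15.7% for Rio2_Δloop over WT and 17.4% for S15_YRR over Rio2_Δloop.

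For mature 40S over S15_YRR the log2 changes were between -0.40 at A789 and 0.48 at C697 (smallest edgeR adjusted p = 0.487), and for mature 40S over Rio2_Δloop between -0.53 at A789 and 0.21 at C696 (smallest adjusted p = 0.387). No nucleotide of the 15 had an unadjusted p under 0.05 in either. When the DMS rate had to be only 1.5 times the NC rate, A623 passed for mature 40S over Rio2_Δloop, with a log2 change of -0.83 (edgeR adjusted p = 0.0447). A623 was named after its values were seen.

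The change in S15 and the change in Rio2 were each set against WT. For S15_YRR over WT the log2 changes were between -0.49 at A780 and 0.23 at A678, with no unadjusted p under 0.05 among the 15 (smallest edgeR adjusted p = 0.712). Without WT replicate 1 they were between -0.57 at A734 and 0.21 at A789, and A780 had 0.13. For Rio2_Δloop over WT the log2 changes were between -0.51 at A780 and 0.44 at C697. Leaving out WT replicate 1 gave -0.24 at A734 to 0.40 at A630, with 0.12 at A780. In the edgeR fit of all replicates A678 had the only unadjusted p under 0.05 of the 15 in any comparison, 0.0373. Its log2 change in Rio2_Δloop over WT was 0.29 (95% interval 0.02 to 0.56), with an edgeR adjusted p of 0.172. Within set 1 alone that change was 0.15 (edgeR adjusted p = 0.643), and with the library set as a term it was 0.24 (adjusted p = 0.13). With the NC libraries in the model, which takes the change between DMS libraries relative to that between NC libraries, it turned to -0.12 (unadjusted p = 0.67, adjusted p = 0.82). In that model C697 likewise turned to -0.14 in Rio2_Δloop over WT. For S15_YRR over Rio2_Δloop the changes were between -0.43 at C697 and 0.24 at C637 (smallest adjusted p = 0.553), and the change at C697 was 0.19 with the NC libraries in the model.

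How large a difference these tests leave room for is given by their 95% intervals. The interval lay within 1 log2 unit on both sides of 0 for 12 of the 15 nucleotides in mature 40S over WT, 12 in mature 40S over S15_YRR and 11 in mature 40S over Rio2_Δloop, and for 13 in each of the other 3 comparisons. A780 had the widest intervals, down to -1.58 in mature 40S over WT. Within set 1 the 15 had log2 changes between -0.78 and 0.59 over the 6 comparisons, and again none passed. The intervals thus leave room for changes under 1 log2 unit at most of the 15 sites, and the other 79 nucleotides, whose DMS rate was closer to the NC rate, were not tested.

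**Figure D5:**
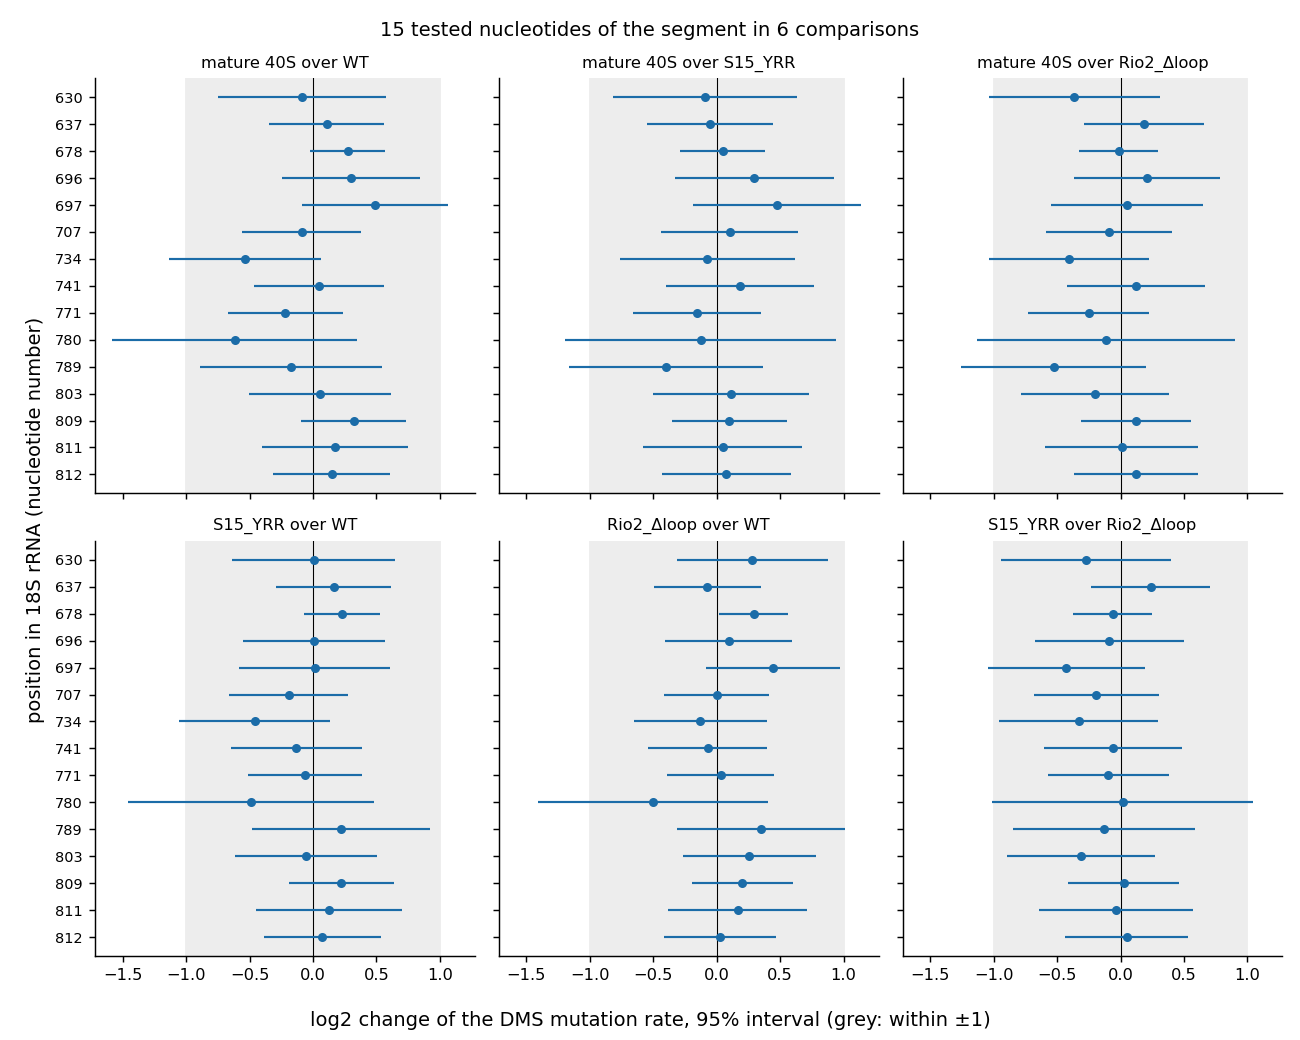
Log2 change of the DMS mutation rate (horizontal, points) with 95% intervals (lines) at the 15 tested nucleotides (vertical, by position) in the 6 comparisons, with the range within 1 log2 unit shaded. Only the interval at position 678 in Rio2_Δloop over WT leaves out 0, at 0.02 to 0.56.

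The untreated libraries showed no called difference in the stretch either. Of 93 nucleotides with a mean NC rate of at least 0.001 as a fraction, 0 passed in any of the 6 comparisons (edgeR adjusted p of at least 0.191), while between 2 and 7 had an unadjusted p under 0.05. Over the 759 tested in 18S, 1.19% were called for mature 40S over WT, 0.132% for mature 40S over S15_YRR and 0 in the others. C654, named after its values were seen, had NC rates of 0.846% to 2.08% in mature 40S, 1.69% to 2.25% in S15_YRR, 0.401% to 2.02% in Rio2_Δloop and 0.525% to 2.19% in WT. These rates followed the library sets: set 1 had 1.56% to 2.25% apart from WT replicate 4 at 0.747%, while the 6 replicates of the other sets had 0.401% to 0.90%. For mature 40S over WT the log2 change of its NC rate was 1.00 (edgeR adjusted p = 0.278), and 0.58 within set 1 (adjusted p = 0.418). C654 was called for mature 40S over WT without WT replicate 5, the highest WT replicate.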

How the data were processed

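DMS-MaPseq profiles of 30 libraries (15 DMS and NC pairs) were analysed. Per the file headers, the deposited profiles give mutations, depth and effective depth per position as counts, and a mutation rate as a fraction; rates recomputed from the counts differed from the authors' by at most 5e-07. A deposited table holds a normalized accessibility signal, used only as an alternative. Aligner, software and filters are not given in the sources used here. The reference has 2012 positions, counted from the start of 18S; the build is not given, so no genome coordinates are used.

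Groups came from the sample titles. Mutation counts were tested with edgeR 4.0.16 in R 4.3.3 (quasi-likelihood F test, robust, all 15 DMS or all 15 NC libraries in 1 fit of 4 groups). The offset was the log of effective depth multiplied by a scale for each library (the median ratio of rates over tested nucleotides). P-values were adjusted over all tested nucleotides of 18S by Benjamini-Hochberg, threshold 0.05. Nucleotides were tested where DMS libraries averaged at least 2 times the NC rate. Reactivity had a pseudocount of 0.1 on the log2 scale, with negative values set to 0 before the log. Single values were tested with exact sign-flip or permutation tests in Python 3.11.15 (numpy 2.4.6, scipy 1.17.1, pandas 2.3.3). Folds used RNAfold of ViennaRNA 2.7.2 without lonely pairs. Figures used matplotlib 3.10.9. Library sets came from average-linkage clustering of log2 NC rates plus 0.0005 at a correlation of 0.75. Scripts were tested on simulated data. Alternatives used DESeq2 1.42.0 and limma 3.58.1, among others.

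The nucleotides named were those past the threshold in any comparison (none), the neighbours of such nucleotides (none) and the 12 with the highest mean of the 4 group mean reactivities; the other tested nucleotides are given as members of a list. The members, the lists and the rule were chosen with earlier results of these data known. Mutations are not counted with molecular identifiers, so depth gives counting precision only.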

Additional observations from a re-analysis of the deposited data

Results flagged for a closer look

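In 44 sets of replicates of 1 particle, 7 had an extreme replicate whose gap to the nearest other took a larger share of the range than the 95% critical value (0.829 for 4 samples, 0.71 for 5); chance alone marks about 1 in 20. In 6 of the 7 that replicate was WT replicate 1. Its reactivity was -2.99 at A780, against 0.557 to 0.899 in the other WT replicates. At A789 it was -0.945, against 0.317 to 0.643, and at A630 it was -1.31, against 0.0620 to 0.461. The mean DMS minus NC rate of the stretch in WT replicate 1 was -0.456 percentage points at C, -0.669 at G and -0.548 at U, against highest values in WT of 0.171, 0.0442 and 0.0667. The remaining one was A803 in Rio2_Δloop, where replicate 2 had a reactivity of 0.163 and the other 3 had 0.370 to 0.411.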

How the results depend on the processing

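The alternatives were planned, except adenines alone and cytosines alone, which were chosen after seeing the data. No alternative resolved a difference between particles in the mean reactivity of the stretch, so its signs carry no call. For mature 40S minus WT the value was 0.00218 with a pseudocount of 0.2, 0.152 in set 1 alone, 0.00634 with the median, 0.0259 with the deposited signal and 0.0712 with adenines alone. For mature 40S minus Rio2_Δloop it was 0.115 in set 1, 0.0661 at a depth of 3000 and 0.0214 with adenines alone; for mature 40S minus S15_YRR it was -0.0354 with cytosines alone. For S15_YRR minus WT it was 0.0122 in set 1, and for Rio2_Δloop minus WT -0.0679 at a depth of 3000 and -0.0323 with cytosines alone. Leaving out 1 replicate gave -0.0760 to 0.102 for mature 40S minus WT, -0.0377 to 0.140 for mature 40S minus S15_YRR, -0.0819 to 0.0958 for mature 40S minus Rio2_Δloop, -0.109 to 0.000169 for S15_YRR minus WT, -0.0116 to 0.0275 for Rio2_Δloop minus WT and -0.115 to -0.00579 for S15_YRR minus Rio2_Δloop. The stretch minus the rest of 18S was -0.0837 with the median (exact p = 0.0851), and -0.138 to -0.112 with 1 replicate left out. Unpaired minus paired was 0.0592 when all of 18S was folded (exact p = 0.139), and 0.20 to 0.222 with 1 replicate left out. In set 1 the DMS minus NC rate was 0.0977 at C, 0.0550 at G and 0.0371 percentage points at U, each past the threshold, and at a depth of 3000 it was -0.0124 at G. With 1 replicate left out it was 0.178 to 0.233 at A, 0.0428 to 0.0878 at C, -0.00236 to 0.0528 at G and -0.0239 to 0.0209 at U; the highest came without WT replicate 1. Calls in the DMS libraries were 0 under every alternative except 1 for mature 40S over Rio2_Δloop with the looser signal filter (A623) and, with 1 replicate left out, 0 to 1 for mature 40S over WT. Replicate numbers did not pair the samples: same-numbered replicates had a median correlation of 0.0163 and only 3 of 15 correlated best with their own number. With the replicate block 0 DMS calls were made, and the NC libraries had 1 call each for mature 40S over WT and S15_YRR over WT, both C654 (log2 1.69 and 1.82; edgeR adjusted p = 0.0137 and 0.0278), against log2 0.56 and 0.51 with the set as a term (adjusted p = 0.43 and 0.589); with 1 replicate left out NC calls were 0 to 1 for mature 40S over WT and 0 elsewhere. The signs of single log2 changes were often unsettled: of 90 (15 nucleotides in 6 comparisons), 60 turned under at least 1 of 12 settings (42 of the 90 could be had at a depth of 3000) and 45 with 1 replicate left out, none with an adjusted p past the threshold. Of the 25 larger than 0.25 in size, 10 turned under a setting. With the set as a term these were A734 in mature 40S over WT (0.02), in mature 40S over Rio2_Δloop (0.22) and in S15_YRR over Rio2_Δloop (0.02), and A780 in Rio2_Δloop over WT (0.16). In set 1 they were A734 in mature 40S over WT (0.05) and over Rio2_Δloop (0.15), and A630 (-0.00035) and A780 (0.11) in Rio2_Δloop over WT. With limma they were A734 in mature 40S over Rio2_Δloop (0.04), A780 in S15_YRR over WT (0.60) and in Rio2_Δloop over WT (0.68), and C697 in S15_YRR over Rio2_Δloop (0.0743). With the NC interaction they were A789 in mature 40S over S15_YRR (0.30), A734 in mature 40S over Rio2_Δloop (0.16), A678 (-0.12), C697 (-0.14) and A780 (0.93) in Rio2_Δloop over WT, and C697 in S15_YRR over Rio2_Δloop (0.19). With 1 replicate left out the 3 that turned were A780 against WT, which ranged from -0.86 to 0.0167 for mature 40S over WT, -0.74 to 0.13 for S15_YRR over WT and -0.76 to 0.12 for Rio2_Δloop over WT, always highest without WT replicate 1; the cause of these changes was not tested. Without the library scale the median over the 115 nucleotides was a log2 change of 0.25 for S15_YRR over WT, 0.15 for S15_YRR over Rio2_Δloop, 0.12 for mature 40S over WT and -0.11 for mature 40S over S15_YRR, and single changes are relative to it.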
